A study of Mus musculus with 8 samples.

Results

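Primitive endoderm genes were read as a list of 10 genes, of 18193 genes that had a probe set annotated to 1 symbol on the array. The members are the transcription factors Gata6, Gata4, Sox17, Sox7 and Foxa2, the matrix proteins Lama1, Lamb1 and Sparc, and the uptake proteins Dab2 and Cubn. Every probe set annotated to exactly 1 of these symbols was taken, which gave 24 probe sets. The RNA came from 8 mouse induced pluripotent stem (iPS) cell clones, each on its own array. Of these, 4 were derived in medium that held ascorbic acid (vitamin C) and 4 in medium that lacked it. All 8 clones came from embryonic fibroblasts (MEFs) of Col-OKSM mice, in which doxycycline switches on Oct4, Sox2, Klf4 and cMyc. The medium of both groups held serum, LIF and doxycycline, the cells sat on irradiated MEF feeders, and ascorbic acid was the difference named between them. Each sample is a clone, and feeder cells were depleted by preplating before the RNA was taken. The sources used here give no age or strain for the embryos.

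Primitive endoderm is the layer of the blastocyst that faces the cavity and later forms the yolk sac endoderm. In the inner cell mass FGF4 from epiblast cells signals through ERK and favours GATA6 over NANOG, after which SOX17, GATA4 and SOX7 come on in that order. The cells then secrete a laminin and collagen IV basement membrane and take up nutrients through cubilin, with DAB2 as an endocytic adaptor. Pluripotent cultures kept in serum can hold scattered cells that switch on these genes, and so the members were read clone by clone. In RNA from a whole culture, a change in the number of such cells and a change in RNA per cell cannot be told apart.

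Signals were compared as log2(signal + 16), so a fold change of a dim gene is understated. Probe sets in the dimmest 40%, below a mean signal of about 93.7, were left out of the comparison of genes. Each gene was represented by its brightest remaining probe set. Of the 10 members 8 had a probe set above that limit and were tested, while Sox7 and Cubn lay below it on every probe set. Of the 24 probe sets 14 lay above it. For the members below the limit the values come from a fit over all 45037 probe sets. Probe sets differ in their response, so signals are compared between clones and not between genes.

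Pluripotency markers gave signal in all 8 clones, but no other cell type was measured, so the signals do not test the pluripotent label. Pou5f1, which encodes OCT4, read 9173 to 11571 over the 8 clones, Nanog 8281 to 10232 and Sox2 13835 to 15483. Like 13125 of the 18193 genes, all 16 listed pluripotency genes passed the filter. With ascorbic acid 1 of these was higher and 15 were lower, beside 48.6% and 51.4% of all genes. In limma 0 of the 16 passed the threshold and 3 were at an unadjusted p under 0.05, beside 5.83% of all genes. Whether the Pou5f1, Sox2 and Klf4 signals include RNA of the transgenes was not tested. The median signal of an array was 134 to 156, lowest in clone 2 with ascorbic acid and highest in clone 1 with it. Such a shift can enter the readings of single clones, and its part in them was not tested.

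No primitive endoderm gene passed the test between clones with and without ascorbic acid. With ascorbic acid 4 of the 8 tested members were higher and 4 lower, beside 48.6% and 51.4% of all genes. Their median log2 difference was 0.017, beside -0.0042 over all 13125 tested genes. In limma 0 of 8 members passed at an adjusted p of 0.05, where 3 of all genes did (0.0229%), and the members' adjusted p lay between 0.798 and 0.995. At an unadjusted p under 0.05 stood 1 member, Sparc, or 12.5%, beside 5.83% of all genes, and 2.77% of all genes stood there on the lower side, as Sparc did. The groups overlapped in all 8 members, and 3.63% of all genes had groups that did not overlap. With each clone left out in turn, 0 members passed.

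**Figure D1:**
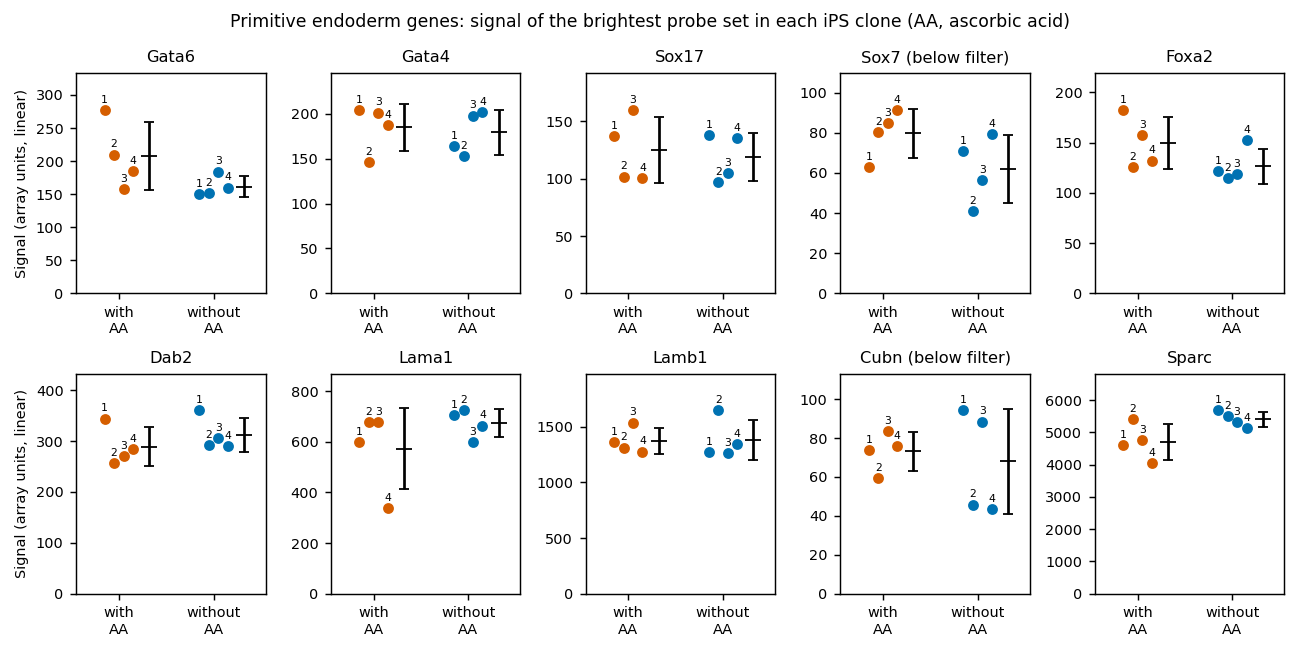
Signal (linear array units, axes from 0) of the brightest probe set of each member in the 4 clones with (orange) and 4 without (blue) ascorbic acid (AA), with clone numbers over the points and the group mean and SD as bars. The groups overlap in every panel, and clone 4 with ascorbic acid lies apart for Lama1 at 339.

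Gata6, the GATA factor that starts the primitive endoderm programme, read 277, 210, 157 and 184 in clones 1 to 4 with ascorbic acid. Without it the signals were 151, 152, 184 and 160. Clones 1 and 2 with ascorbic acid were above every clone without it, clone 4 with it was level with clone 3 without it, and clone 3 with it was below 2 of the clones without it. The means were 207 ± 51.5 with and 162 ± 15.5 without (SD, n = 4 each). This was a log2 difference of 0.31 ± 0.17 (SE; limma, adjusted p = 0.844), with a 95% interval from 0.95-fold to 1.61-fold. Without clone 1 with ascorbic acid the log2 difference was 0.166. The other Gata6 probe set above the filter, 1425463_at, did not rank the clones alike: it was highest in clone 4 without ascorbic acid, at 158, and its log2 difference was -0.018 ± 0.25 (SE). Across the 8 clones the log2 values of these probe sets had a Pearson r of 0.209, a description over points that share the same arrays.

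Gata4, a GATA factor that follows Gata6 and maintains the lineage, read 204, 146, 201 and 187 with ascorbic acid. Without it the signals were 164, 153, 198 and 202. Clone 2 was the lowest of each group and the ranges nearly coincided. The log2 difference was 0.040 ± 0.16 (SE, n = 4 each; limma, adjusted p = 0.979), with a 95% interval from 0.81-fold to 1.30-fold.

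Sox17, an HMG-box factor of the committed endoderm, read 137, 102, 160 and 101 with and 138, 96.8, 105 and 136 without ascorbic acid. The clones of both groups fell between about the same limits, close to the filter on dim probe sets. Its log2 difference was 0.054 ± 0.20 (SE, n = 4 each; limma, adjusted p = 0.978). This probe set is of the _a_at class and the other Sox17 probe set of the _x_at class, which can read more than 1 transcript. Sox7, a relative of Sox17 that appears last among these factors, stayed below the filter. On its brighter probe set it read 62.9, 80.2, 84.8 and 91.4 with and 70.8, 41.1, 56.6 and 79.4 without, with overlapping groups and a log2 difference of 0.32 ± 0.23 (SE; fit over all probe sets in limma, adjusted p = 0.943). Its 95% interval ran from 0.87-fold to 1.78-fold. Leaving out clone 2 of the group without ascorbic acid gave 0.174.

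Foxa2, a forkhead factor of visceral and definitive endoderm, read 183, 126, 157 and 132 with ascorbic acid. Without it clones 1 to 3 lay at 121, 115 and 118 and clone 4 at 153. Each clone with ascorbic acid was above clones 1 to 3 without it, and clone 4 without it was above 2 of those with it. The means were 149 ± 25.9 and 127 ± 17.4 (SD, n = 4 each). On the log2 scale they differed by 0.21 ± 0.17 (SE; limma, adjusted p = 0.894), with a 95% interval from -0.17 to 0.58. Leaving out clone 1 with ascorbic acid gave 0.115.

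The sequence before the start of a gene is shown for the 4 members that were tested and have an entry in the RefSeq promoter table (GRCm38.p6), since the members include the GATA, SOX and FOXA factors whose motifs can be looked for there. Each run goes 5′ to 3′ on the gene's strand and ends at the base before the annotated gene. The GATA motif was searched as GATAA, the SOX motif as ACAAT and the FOXA motif as TGTTTAC, on both strands. Capitals mark a match, and no matches overlapped. For Foxa2 (chr2:148046970-148047219, minus strand) none of these letters occurred.
Foxa2: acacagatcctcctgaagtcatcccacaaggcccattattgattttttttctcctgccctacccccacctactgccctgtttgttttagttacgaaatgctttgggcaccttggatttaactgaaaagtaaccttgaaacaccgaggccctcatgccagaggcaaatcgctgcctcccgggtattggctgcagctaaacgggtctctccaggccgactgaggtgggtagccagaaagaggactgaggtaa
Of 32851 promoter windows of that length, 22.6% held GATAA, 27.7% ACAAT and 3.17% TGTTTAC.

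Dab2, an endocytic adaptor that is needed to shape the endoderm layer, read 344, 256, 271 and 284 on its brightest probe set with ascorbic acid, and 361, 292, 305 and 289 without it. In both groups clone 1 was the highest and the other 3 clones lay close together. The means were 289 ± 38.6 and 312 ± 33.3 (SD, n = 4 each). The clones with ascorbic acid stood at -0.11 ± 0.12 log2 relative to those without (SE; limma, adjusted p = 0.928), with a 95% interval from 0.77-fold to 1.12-fold. Leaving out clone 1 with ascorbic acid gave -0.191, and leaving out clone 2 with it or clone 1 of the other group gave -0.0568 and -0.0401. A dimmer Dab2 probe set, 1430604_a_at, was the only member probe set of 24 whose groups did not overlap. It read 117, 77.4, 65.9 and 71.9 with and 45.0, 41.2, 55.9 and 55.9 without, all but the first of these below the filter's limit of 93.7. The log2 difference was 0.58 ± 0.23 (SE, n = 4 each; fit over all probe sets in limma, adjusted p = 0.907; exact two-sided permutation p = 0.0286, the smallest that 70 assignments can give). Over all probe sets 3.12% had groups that did not overlap, beside 4.17% of the member probe sets, and 1.42% lay apart on the higher side, as this one did. The other 3 Dab2 probe sets had log2 differences of -0.11, -0.033 and -0.029.

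The Dab2 promoter window (chr15:6299539-6299787, plus strand) held 1 GATAA match, in capitals, a motif found in 22.5% of windows of that length.
Dab2: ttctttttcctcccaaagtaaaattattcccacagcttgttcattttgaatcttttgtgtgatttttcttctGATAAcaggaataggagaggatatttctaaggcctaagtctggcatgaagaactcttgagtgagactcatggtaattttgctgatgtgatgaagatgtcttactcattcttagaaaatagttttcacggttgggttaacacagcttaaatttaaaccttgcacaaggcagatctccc

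Cubn, the cubilin receptor of the yolk sac and kidney, lay below the filter on both probe sets. The brighter read 73.7, 59.3, 83.7 and 75.8 with and 94.3, 45.7, 88.4 and 43.4 without ascorbic acid. The clones with ascorbic acid fell inside the range of those without. Its log2 difference was 0.14 ± 0.27 (SE, n = 4 each; fit over all probe sets in limma, adjusted p = 0.983), with a 95% interval from 0.73-fold to 1.65-fold. Amn, the membrane anchor of cubilin, read 144 ± 19.3 with and 173 ± 8.32 without (SD, n = 4 each), and Lrp2, the megalin receptor that works with it, 471 ± 72.4 and 406 ± 105 (SD, n = 4 each). Neither passed (limma, adjusted p = 0.844 and 0.865). Lrp2 was at 0.23 log2 on this probe set, its brightest. Its other probe sets above the filter stood on either side of 0, at 0.13 ± 0.18 and -0.28 ± 0.15 log2 (SE). Of 9 tested genes of the uptake receptor list 3 were higher and 6 lower, with 0 past the threshold. At an unadjusted p under 0.05 (limma) was 1, beside 5.83% of all genes. It was Lrpap1, a chaperone of these receptors (log2 difference -0.20).

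Lama1, the laminin alpha chain of the first embryonic basement membranes, was set apart by a single clone. With ascorbic acid it read 599, 679, 677 and 339, and without it 705, 725, 600 and 664. Clone 4 with ascorbic acid was lower than all 7 others, which lay between 599 and 725. The means were 574 ± 161 with and 674 ± 55.2 without (SD, n = 4 each). Its log2 difference was -0.27 ± 0.18 (SE; limma, adjusted p = 0.851). Without that clone the log2 difference was -0.045. Lama1 had 1 probe set.

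Lamb1, the beta chain that pairs with it, had almost the same group means on its brightest probe set, 1424114_s_at. Its signals were 1365, 1314, 1539 and 1277 with and 1276, 1650, 1265 and 1343 without ascorbic acid. The highest clone of each group, clone 3 with and clone 2 without, stood above the rest. The log2 difference was -0.0052 ± 0.091 (SE, n = 4 each; limma, adjusted p = 0.995), with a 95% interval from 0.87-fold to 1.14-fold. Its other probe sets above the filter stood on either side of 0, at 0.19 ± 0.13 and -0.079 ± 0.11 log2 (SE). The log2 values of these 3 probe sets had a Pearson r of 0.555 to 0.708 with each other over the 8 clones. The stretch before the annotated Lamb1 gene (chr12:31265043-31265145, plus strand) held none of the motifs, which 11.4% (GATAA), 13.4% (ACAAT) and 1.35% (TGTTTAC) of windows of that length held.
Lamb1: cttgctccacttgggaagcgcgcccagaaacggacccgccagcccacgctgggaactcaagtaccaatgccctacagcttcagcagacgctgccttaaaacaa

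Sparc, a secreted glycoprotein that binds collagen IV and is abundant in parietal endoderm and in fibroblasts, was the member with the smallest p. It read 4604, 5409, 4771 and 4054 with ascorbic acid and 5688, 5499, 5325 and 5141 without. Clones 1, 3 and 4 with ascorbic acid were below every clone without it, while clone 2 lay among those without. The means were 4709 ± 558 and 5413 ± 234 (SD, n = 4 each). The log2 difference was -0.21 ± 0.080 (SE; limma, unadjusted p = 0.0235, adjusted p = 0.798; exact two-sided permutation p = 0.0857). The 95% interval ran from 0.77-fold to 0.98-fold. Without clone 4 with ascorbic acid the log2 difference was -0.138, and without clone 2 with it -0.276 (adjusted p = 0.944 and 0.566). With each array centred on its median it was -0.173, at an unadjusted p of 0.146 and an adjusted p of 0.989 (limma).

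The next brightest Sparc probe set, 1448392_at, read 3139, 4069, 2510 and 2833 with and 3952, 4953, 3471 and 3976 without ascorbic acid. Again 3 of the 4 clones with ascorbic acid were below all without and clone 2 was not. Its log2 difference was -0.39 ± 0.14 (SE; fit over all probe sets in limma, adjusted p = 0.906). The third, far dimmer, was at 0.11 ± 0.22 (SE) and its Pearson r with the others over the 8 clones was -0.366 and -0.22. The promoter window of Sparc (chr11:55420081-55420330, minus strand) held none of the motifs.
Sparc: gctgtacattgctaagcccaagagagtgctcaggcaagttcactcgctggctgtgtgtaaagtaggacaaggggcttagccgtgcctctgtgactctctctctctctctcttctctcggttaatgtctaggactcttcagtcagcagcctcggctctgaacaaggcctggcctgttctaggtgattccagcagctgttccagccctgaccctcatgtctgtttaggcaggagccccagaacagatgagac

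The summed signal of fibroblast and feeder markers ordered the clones much as Sparc did, though not every marker did so. With ascorbic acid 23 of 26 tested markers were lower, or 88.5%, beside 51.4% of all genes, and 3 were higher. The median log2 difference was -0.18, with 0 past the threshold. At an unadjusted p under 0.05 were 8 (limma), beside 5.83% of all genes. Groups did not overlap in 2 markers, beside 3.63% of all genes. The summed signal of the 26 markers ran from 59500 to 73469 in clones with ascorbic acid and from 68732 to 75168 in the others. These 26 had passed the filter on dim probe sets, which favours signals well above 0, and the lowest was 114 for Snai2. The listed markers Dcn, Lum and Twist2 lay below the filter. On their brightest probe sets Dcn ran from 13.8 to 170 over the 8 clones and Lum from 41.6 to 70.8. Ordered by this sum, the 8 clones ran in the same order as by Sparc except that clones 1 and 3 with ascorbic acid, at 60891 and 60630, changed places. Clone 2 with ascorbic acid, the clone whose Sparc lay among those without, had the highest sum of its group at 73469. The sum weights bright markers most. By the median log2 deviation of the markers the first 5 places were taken by the same 5 clones and the last 3 by clones 1, 4 and 3 with ascorbic acid. Taken singly, 25 of the 26 markers had a Pearson r above 0 with Sparc over the 8 clones, with a median of 0.678, beside 48.6% of all tested genes above 0; the values share arrays and groups. Tagln, an actin-binding protein of contractile cells, had an r of 0.0225 and was lowest in clone 1 without ascorbic acid (2887) and highest in clone 3 with it (4172). Twist1 had an r of -0.71. Pluripotency genes were lower with ascorbic acid too, in 15 of 16. The part of fibroblast RNA in the Sparc difference was not tested.

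**Figure D2:**
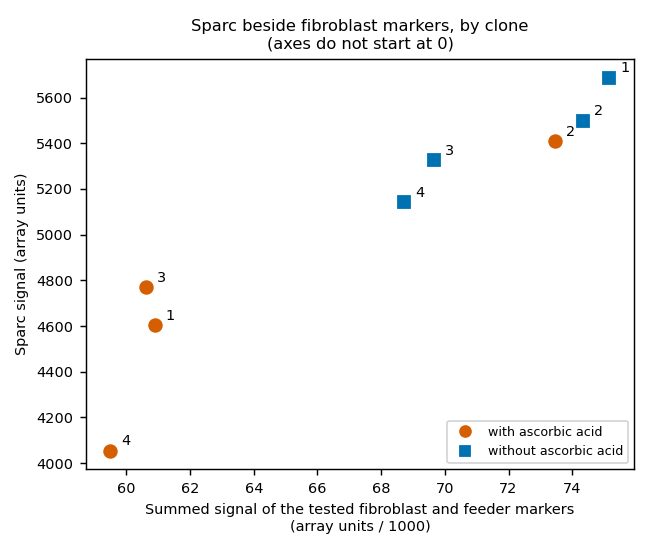
Sparc signal (array units, y axis) of each clone beside the summed signal of 26 tested fibroblast and feeder markers (array units, shown divided by 1000, x axis), with clone numbers beside the points. Clones 1, 3 and 4 with ascorbic acid lie lowest on both axes, and clone 2 with ascorbic acid lies among the clones without it.

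Col1a2, a fibrillar collagen chain of fibroblasts, read 3658, 4766, 3341 and 3212 with and 5168, 4485, 4633 and 4046 without ascorbic acid. As for Sparc, clones 1, 3 and 4 with ascorbic acid were below all clones without it. Its log2 difference was -0.30 ± 0.11 (SE, n = 4 each; limma, adjusted p = 0.782), and Col1a1 and Col3a1 stood at -0.33 and -0.34 (adjusted p = 0.844 and 0.823). Postn, a fibroblast matrix protein, had groups that did not overlap, as in 3.63% of all genes. It read 286 to 357 with and 389 to 440 without (log2 difference -0.38, limma adjusted p = 0.749). Twist1, a mesenchymal transcription factor on the same list, was at 0.52, in the other direction (adjusted p = 0.749).

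**Figure D3:**
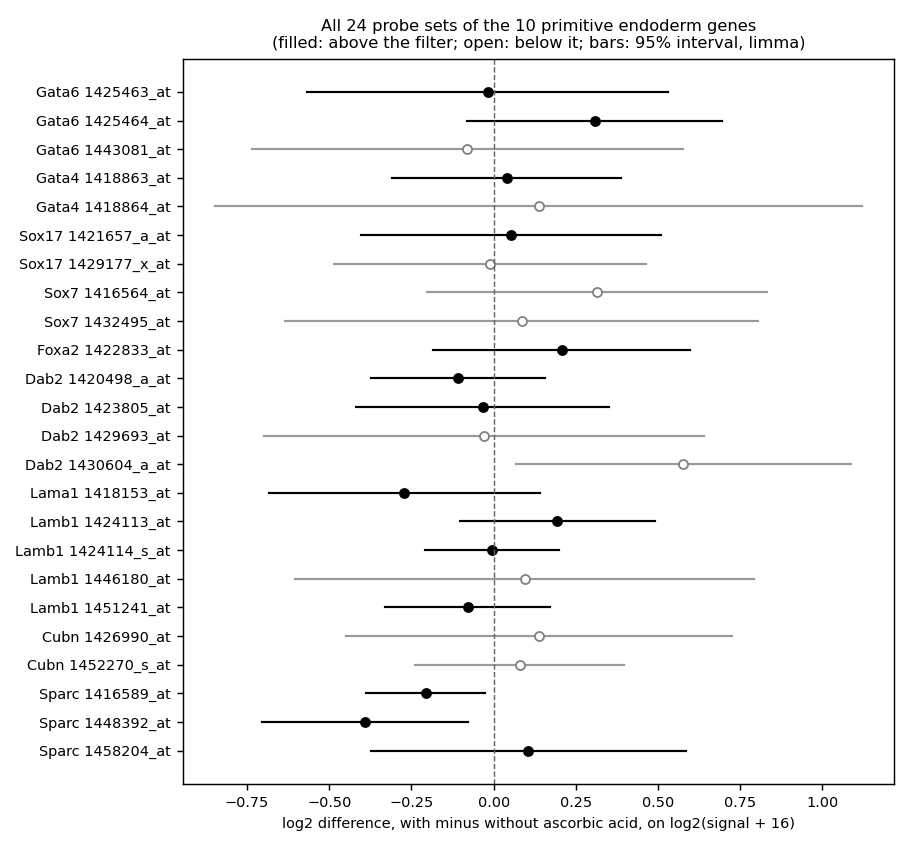
Log2 difference (with minus without ascorbic acid, x axis) of all 24 member probe sets, with 95% intervals from limma over all probe sets; filled points lie above the filter on dim probe sets and open points below it. The intervals of 3 probe sets leave out 0, namely 2 of Sparc on the lower side and the dim Dab2 probe set on the higher side.

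Over all probe sets the members were likewise divided. With ascorbic acid 13 of the 24 probe sets were higher and 11 lower. In limma 0 of them passed, beside 0.0244% of all probe sets. At an unadjusted p under 0.05 were 3 of 24, or 12.5%, beside 5.37% of all probe sets. These were the 2 bright Sparc probe sets and the dim Dab2 probe set named above, in opposite directions. Probe sets of a gene read the same RNA and are not independent.

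Read clone by clone, no clone had all members high. Clone 1 with ascorbic acid was the highest of the 8 for 3 of the 8 tested members, the factors Gata6, Gata4 and Foxa2. Its log2 deviations from the mean of all clones were 0.58, 0.16 and 0.38, and its deviation for Sox17 was 0.17. The same clone was above the mean for Dab2 as well, at 0.19, and below it for Sparc, at -0.13. For Lama1 and Lamb1 it lay close to the mean, at -0.025 and -0.0080. The array of this clone had the highest median of the 8, at 156. The summed signal of all tested genes was lowest on that array, at 16715000 beside 17016000 to 17876000 on the others. Whether the level of the array enters these deviations was not tested. Clone 3 with ascorbic acid was highest for Sox17, at 0.37, and was below the mean for Gata6, at -0.19. Clone 2 without ascorbic acid was lowest for Sox17 and Foxa2 and highest for Lama1 and Lamb1. The median deviation of the 8 members lay between -0.13 and 0.17 over the clones. Of all tested genes, 14.9% were highest in clone 1 with ascorbic acid and 13.8% lowest in clone 2 without it.

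**Figure D4:**
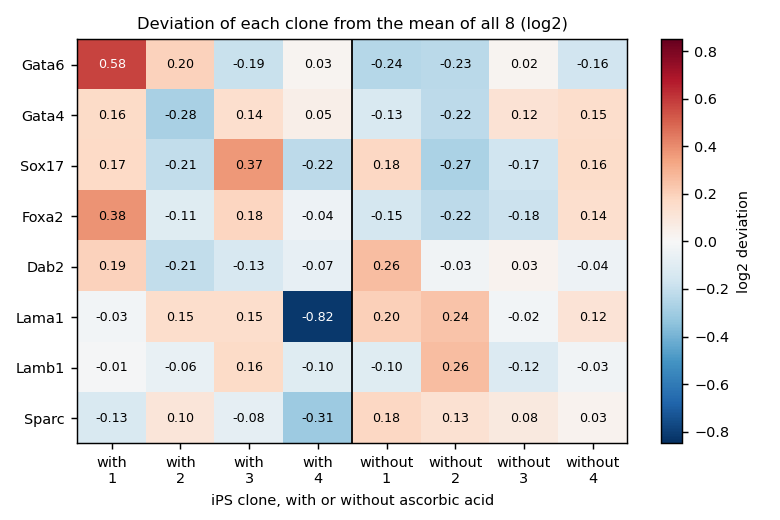
Log2 deviation of each clone (columns) from the mean of all 8 clones for the 8 tested members (rows), red above and blue below the mean. Gata6 in clone 1 with ascorbic acid, at 0.58, and Lama1 in clone 4 with it, at -0.82, are the extreme cells.

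Clone 4 with ascorbic acid was low for Lama1 and also for other basement membrane genes. Of the 17 tested genes of the basement membrane list that are not members, 8 were lowest of all clones in this clone, or 47.1%, beside 13.3% of all tested genes. Some other lists had more than 13.3% of their genes lowest in this clone too. These were 31.2% of the pluripotency genes, 30.0% of the other primitive endoderm genes, 26.9% of the fibroblast markers and 20.0% of the trophectoderm markers. Other lists did not, with 12.5% of the definitive endoderm markers and 5.88% of the FGF and ERK genes. For the uptake receptor list and the GATA, SOX and FOXA genes it was 0.0%. The pluripotency share was also 31.2% in clone 1 with ascorbic acid. The differences between these shares were not tested, and the counts were made after the Lama1 values had been seen. The median deviation of the 17 genes in clone 4 was small, at -0.08 log2. Clone 1 with ascorbic acid was about as low for them, with a median deviation of -0.07. Its summed signal of these genes, 26479, was below the 26561 of clone 4, though only 3 of them were lowest in clone 1. Col4a2, a collagen IV chain, read 468 in clone 4 and 580 to 668 in the others. Col4a1, its partner chain, read 1431 in clone 4 and 1497 to 1898 in the others. Nid1, which links laminin to collagen IV, read 1748 there and 1924 to 2507 elsewhere. The gamma chain Lamc1, at 3523, was not low in this clone. The clone's fibroblast marker sum, 59500, was also the lowest of the 8, and the part of fibroblast RNA in these values was not tested.

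Between the groups, the 20 tested genes of the basement membrane list, members included, stood at a median log2 difference of -0.068, with 5 higher and 15 lower. In limma 0 passed the threshold and 4 were at an unadjusted p under 0.05, beside 5.83% of all genes. Nid1 had groups that did not overlap, as in 3.63% of all genes, at 1969 ± 171 with and 2350 ± 149 without (SD, n = 4 each). Its log2 difference was -0.25 (limma, adjusted p = 0.749). The integrin Itgb1, the beta chain of laminin receptors, was at -0.19 (adjusted p = 0.757). Lamc1 was at -0.070 and Col4a1 at 0.026 on their brightest probe sets. A dimmer Col4a1 probe set, 1426348_at, was at -0.56 (fit over all probe sets in limma, adjusted p = 0.587), so the probe sets of this gene disagreed. On 1426348_at the groups did not overlap, as in 3.12% of all probe sets.

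Of 39 other listed genes of the primitive endoderm and its derivatives 30 were tested. Of these 14 were higher and 16 lower with ascorbic acid, with a median log2 difference of -0.039. In limma 0 passed the threshold and, beside 5.83% of all genes, 2 were at an unadjusted p under 0.05. Those were Nid1 and Cst3, the protease inhibitor cystatin C, at 2231 ± 228 with and 2606 ± 170 without (SD, n = 4 each; log2 difference -0.23, adjusted p = 0.757). Pdgfra, a receptor of early primitive endoderm that fibroblasts also carry, read 185, 154, 87.1 and 167 with and 130, 133, 98.1 and 98.9 without (adjusted p = 0.882). On this probe set Pdgfra was highest in clone 1 with ascorbic acid, as Gata6 was on its brightest, and lowest in clone 3 with it. Its dimmer probe sets, below the filter, did not rank the clones alike. Of these 1438946_at was highest in clone 1 with ascorbic acid, at 176, and 1421917_at in clone 3 with it, at 83.5. Afp, Ttr, Apoa1, Cited1, Srgn, Cer1, Bmp2 and Dkk1 lay below the filter.

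Of 8 tested GATA, SOX and FOXA genes, members included, 5 were higher and 3 lower, with 0 past the threshold and 0 at an unadjusted p under 0.05 (limma). Gata5, a GATA factor of later endoderm, was at 108 ± 31.4 with and 132 ± 13.0 without (SD, n = 4 each; adjusted p = 0.879).

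Genes of the FGF and ERK route that favours primitive endoderm were higher in 10 and lower in 7 of 17 tested, with a median log2 difference of 0.061. In limma 0 passed the threshold and 3 were at an unadjusted p under 0.05, beside 5.83% of all genes. Fgfr1, a receptor for FGF4, read 2004 ± 232 with and 1707 ± 123 without, and Etv5, a transcriptional target of the route, 4002 ± 527 and 3450 ± 121 (SD, n = 4 each; adjusted p = 0.767 and 0.812). The ligand Fgf4 was at -0.15 and the receptor Fgfr2 at -0.094 on their brightest probe sets (adjusted p = 0.844 and 0.942). A dimmer Fgf4 probe set above the filter, 1450282_at, was at -0.22 (fit over all probe sets in limma, adjusted p = 0.868). Its groups did not overlap, as in 3.12% of all probe sets. Another, 1420085_at, was at -0.099 with overlapping groups.

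Definitive endoderm and primitive streak markers, which share Foxa2 and Sox17 with the yolk sac lineage, split evenly, 4 of 8 tested being higher and 4 lower, with 0 past the threshold and 0 at an unadjusted p under 0.05 (limma). Their largest log2 differences were 0.17, for the cadherin Cdh2, and -0.14, for the Nodal co-receptor Tdgf1 (adjusted p = 0.907 and 0.844). Of 10 tested trophectoderm markers 2 were higher and 8 lower, with 0 past the threshold and 0 at an unadjusted p under 0.05. The homeobox gene Rhox9 was at -0.42 and the ligand Wnt7b at -0.18, both at an adjusted p of 0.881. Among pluripotency genes Tbx3, a factor that can also drive primitive endoderm when raised, was at -0.28, and Klf2, a naive state factor, at -0.30 (adjusted p = 0.616 and 0.697). In both genes the groups did not overlap, as in 3.63% of all genes. They were named as the 2 smallest p of their list, a choice that favours such groups.

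**Figure D5:**
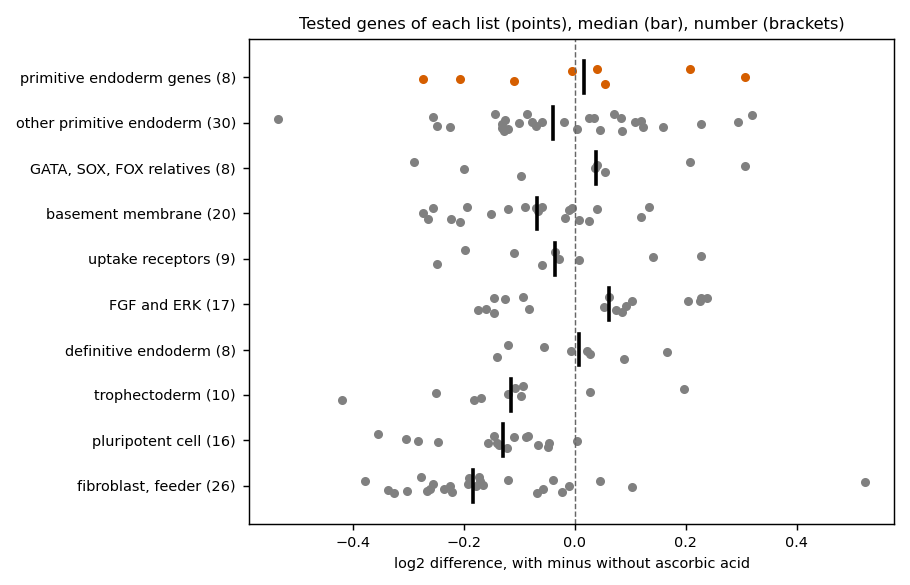
Log2 difference (with minus without ascorbic acid, x axis) of each tested gene in 10 lists, with the median as a bar. The primitive endoderm genes spread from -0.27 to 0.31 around a median of 0.017, and the fibroblast and feeder markers lie mostly below 0 with a median of -0.18.

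The genes whose level followed each tested member most closely were read from the Pearson r of log2 values over the 8 clones. This is a description of arrays that share 2 groups and any array effect. The 3 highest r were picked from all 13125 tested genes over only 8 clones, a choice that itself favours a high r. How high r would go between unrelated genes was not tested, so no link to the genes named is shown. For Sparc the 3 nearest were Col5a1, a fibrillar collagen chain on the fibroblast list (r = 0.976), Gigyf2 (0.972) and Rec114 (0.962). With the group means taken out the r of Col5a1 with Sparc was 0.955. For Lama1 they were Ptp4a3 (0.979), Tcl1 (0.972) and Ccdc115 (0.972), and for Lamb1 Slc6a15 (0.976), Arv1 (0.931) and Rab10 (0.929). For Gata6 they were Srxn1 (0.947), A930016O22Rik (0.946) and Poglut3 (0.934), and for Gata4 Krtap8-1 (0.972), Bmp7 (0.969) and Zbtb5 (0.967). For Sox17 they were Acad10 (0.936), Col22a1 (0.931) and Dnajc16 (0.923), and for Foxa2 Csad (0.953), Gpc2 (0.947) and Aste1 (0.941). For Dab2 they were Rnf182 (0.951), Rasgrf2 (0.949) and Tmc8 (0.935). No member was among the 3 nearest genes of another member. With 3 places per member and 13125 tested genes this was likely beforehand, so it does not tell whether members vary together.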

How the data were processed

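Groups and clone numbers came from the labels, 4 clones per group. Per the labels the clones are biological replicates, but no source embryo or culture is named for each. The p-values therefore reflect the spread between these clones, which may be technical in part. The deposited values are linear signal intensity per probe set. Per the submitters' processing notes GCOS was used; the sources used here do not give its algorithm or version. The deposited intensities have a mean of about the same size on every array after trimming, and the array medians spanned 0.199 on the log2(signal + 16) scale, just inside a limit of 0.2, so that scaling was kept. Without the pseudocount they spanned 0.221, outside the limit. No depth applies to arrays, and precision is limited by their number.

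Of 45101 probe sets, 64 controls were left out. Of the rest 34945 have 1 symbol, 932 several and 9160 none, in GEO's annotation. All 24 member probe sets matched the RefSeq symbol (GRCm38.p6) through their Entrez identifier. Apart from the promoter windows, which are on GRCm38.p6, gene coordinates are not given because the deposited data name no build.

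Differences are with minus without ascorbic acid. They were tested with limma 3.58.1 (lmFit, eBayes with trend) under R 4.3.3. Tests were two-sided and p was adjusted by the Benjamini-Hochberg method over the 13125 tested genes, or over all probe sets where said, at 0.05. Single values also got an exact permutation test over 70 assignments. The fit was tested on simulated data. The alternatives changed the scaling (quantile normalization or median centring), the pseudocount (1 or 64), the filter (none or 60%), and the probe sets used per gene (their mean, or _at sets alone). Others changed eBayes (without trend, or robust), weighted the arrays, took the clone number as a block or left out each clone.

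The members and gene lists were chosen with earlier results of these data known. The rule for named genes took every member and probe set, from each list the 2 genes with the smallest p (none passed), the 3 genes nearest each tested member, and Pou5f1, Nanog, Sox2, Col1a1, Col1a2, Col3a1 and Postn. Other genes (Amn, Lrp2, Col4a1, Col4a2, Lamc1, Pdgfra, Fgf4, Fgfr2, Snai2, Tagln and the genes named as below the filter) were chosen after their values were seen. Figures were drawn with matplotlib 3.10.9.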

Additional observations from a re-analysis of the deposited data

Results flagged for a closer look

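Of 92 groups of 4 clones, 7 (7.61%) held a clone far from the other 3 by Dixon's ratio, where chance gives about 5%. Of the 48 groups of member probe sets 4 did, all on probe sets below the filter on dim signals. On the Sox7 probe set 1432495_at, clone 2 of the group without ascorbic acid read 42.5 and the other 3 read 5.06 to 7.08. On the Dab2 probe set 1429693_at, clone 1 of that group read 58.8 and the other 3 read 20.8 to 23.4. The Lamb1 probe set 1446180_at had such a clone in both groups, clone 3 each time. With ascorbic acid it read 26.02 beside 12.7 to 13.6, and without it 45.4 beside 5.83 to 10.1. Outside the members, clone 3 with ascorbic acid stood high for Tdgf1, at 17653 beside 14391 to 14924. Clone 2 of the same group was low for 2 genes, Twist1 at 161 beside 212 to 217 and Wnt7b at 509 beside 714 to 746. The Lama1 signal of 339 in clone 4 with ascorbic acid did not reach the critical ratio in its group.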

How the results depend on the processing

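No member passed under any of the 20 alternatives, and between 0 and 2 members had an unadjusted limma p under 0.05. The number of genes past the threshold, 3 as reported, was 1 without the trend and 1 with robust estimation, and 2 to 4 with each clone left out. With the clone number as a replicate block it was 3. The numbers did not pair the clones: the correlations of deviations between clones of the same number were -0.165 to 0.012, and no clone was most like its own number. Gata6, Sox7 and Foxa2 stayed higher, and Dab2, Lama1 and Sparc lower, under every alternative that gave a value (Sparc -0.276 to -0.138, Gata6 0.144 to 0.42, Lama1 -0.368 to -0.0453). The sign of Lamb1 turned under median centring (0.0283), with the mean of probe sets (0.0363), with _at probe sets alone (0.193) and with array weights (0.0225), and lay between -0.0606 and 0.0813 with each clone left out. With each clone left out Gata4 ran from -0.0273 to 0.138, Sox17 from -0.0607 to 0.138 and Cubn from -0.00955 to 0.288, so their signs turned as well; the cause was not tested. The 60% filter left 4 members tested, and _at probe sets alone gave no value for Sox17. Under median centring 0 members had an unadjusted p under 0.05 (limma). Sox7 and Cubn lay below the filter and Sox17 close to it, which limits what can be read for them.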
